A study of Rattus norvegicus with 4 samples.

Results

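The genes described here carry a secreted or membrane protein from the ribosome through the endoplasmic reticulum (ER) to the Golgi. They are the subunits of the Sec61 translocon and its partners, the signal peptidase, the oligosaccharyltransferase, the enzymes that build the lipid-linked oligosaccharide, and the Golgi enzymes that trim and branch N-glycans. The list held 39 genes, sorted into 5 steps of the pathway. They were chosen by function, with earlier results of these data known. Shares of the list set beside all genes are therefore descriptions only. A gene was measured where a probe set was annotated to it alone, which gave 38 of the 17245 genes on the array. The exception was Sec61g, the small gamma subunit of the translocon, whose probe set is also annotated to a pseudogene. Stt3b had 2 probe sets, of which the brighter was used, and the other measured genes had 1.

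The series consisted of 4 one-colour arrays of total RNA from primary cortical neurons of Sprague Dawley rat embryos at embryonic day 18. In 2 arrays the neurons carried pLL3.7 lentivirus expressing PHF6shRNA-2, a short hairpin RNA against the X-linked nuclear protein PHF6, and in 2 arrays the same vector with a control shRNA. RNA was taken 5 days after infection in both groups, and the neurons received no other treatment. A single shRNA was used, so loss of PHF6 and other effects of that hairpin cannot be told apart. The labels call the 2 arrays of a group biological duplicates without naming separate cultures or animals, so p-values reflect only how far these arrays differ from each other.

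In this pathway, a signal sequence is threaded through the Sec61 channel as the protein is made, and the signal peptidase cuts it off on the lumenal side. The oligosaccharyltransferase moves a preassembled glycan from the lipid dolichol to asparagines of the growing chain. Golgi mannosidases then trim that glycan, and N-acetylglucosaminyltransferases and fucosyltransferases turn it into the branched forms found on neuronal receptors, channels and adhesion proteins.

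Phf6 itself read 34.4 and 31.3 intensity units in the PHF6 shRNA arrays, against 32.8 and 34.3 in the control shRNA arrays. No array exceeded its background level, the signal under which 95% of 1272 olfactory and vomeronasal receptor genes fell (34.7 to 43.7 units). The array therefore does not check the knockdown, and every direction below rests on the labels. Of 13 neuronal markers, 13 were above background on all 4 arrays. Their differences ran from -0.65 to 0.21 log2 units, 10 below 0 and 3 above, with a median of -0.06, the neurofilament gene Nefl at -0.65 and the tubulin gene Tubb3 at -0.22. Below 0 were thus 76.9% of the 13, against 52.3% of all genes and 66% of the brightest 25% of genes. Without overlap 5 of the 13 were lower (38.5%, against 21.7% of all genes and 38.9% of the brightest 25%). Of 9 astrocyte markers measured, 9 had higher means in the PHF6 shRNA arrays (median difference 0.16 log2 units), led by the glutamate transporter gene Slc1a2 at 0.98 and Aldoc at 0.61. Without overlap 2 of the 9 were higher (22.2%, against 16% of all genes). Slc1a2 read 318 and 357 in the PHF6 shRNA arrays, against 140 and 210 in the control shRNA arrays. Aldoc read 246 and 283 in the PHF6 shRNA arrays, against 145 and 206 in the control shRNA arrays. The summed intensity of the 9 was 2557 and 5145 in the PHF6 shRNA arrays, against 2162 and 4176 in the control shRNA arrays. These sums overlapped between groups, and the arrays numbered 2 were the high ones. Vim made the largest part of each, at 1295 and 2726 in the PHF6 shRNA arrays, against 1252 and 2102 in the control shRNA arrays. The astrocyte genes Gfap, Aqp4 and Gja1 were above background on 2 arrays each. Summed microglial markers ran from 270 to 287 in the PHF6 shRNA arrays and from 258 to 294 in the control shRNA arrays, with 5 of 9 above background on no array. Oligodendrocyte markers summed to 328 and 420 in the PHF6 shRNA arrays, against 347 and 430 in the control shRNA arrays. Of the 8 measured, 1 was above background on all 4 arrays and 3 on no array. Vascular and fibroblast markers summed to 347 and 339 in the PHF6 shRNA arrays, against 337 and 323 in the control shRNA arrays, and 5 of 8 were above background on no array. Markers of dividing cells summed to 441 and 890 in the PHF6 shRNA arrays, against 516 and 877 in the control shRNA arrays, again with the arrays numbered 2 high. The part of these markers in the results was not tested. In bulk RNA, fewer cells of a type and less RNA per cell cannot be told apart.

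The 250 bases before the annotated start are shown for the 2 catalytic subunits of the signal peptidase, which differed unequally, and for Mgat4a, the branching enzyme with the highest difference among the listed genes. They were taken from RefSeq on GRCr8 and are given 5′ to 3′ on the gene's own strand, with GC boxes (GGGCGG or its complement CCGCCC) in capitals. Sec11c lies at chr18:61590655-61590904 on the plus strand, Sec11a at chr1:144318659-144318908 on the minus strand, and Mgat4a at chr9:47262714-47262963 on the minus strand.
Sec11c: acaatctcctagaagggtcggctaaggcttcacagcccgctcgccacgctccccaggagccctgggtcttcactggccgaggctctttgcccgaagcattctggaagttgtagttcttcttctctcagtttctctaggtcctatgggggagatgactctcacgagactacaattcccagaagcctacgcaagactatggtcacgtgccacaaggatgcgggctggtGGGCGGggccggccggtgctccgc
Sec11a: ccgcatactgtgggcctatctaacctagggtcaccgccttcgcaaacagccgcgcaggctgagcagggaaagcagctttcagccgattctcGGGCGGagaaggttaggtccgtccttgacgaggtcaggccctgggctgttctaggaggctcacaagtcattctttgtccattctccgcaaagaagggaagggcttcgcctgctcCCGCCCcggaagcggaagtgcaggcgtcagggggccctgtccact
Mgat4a: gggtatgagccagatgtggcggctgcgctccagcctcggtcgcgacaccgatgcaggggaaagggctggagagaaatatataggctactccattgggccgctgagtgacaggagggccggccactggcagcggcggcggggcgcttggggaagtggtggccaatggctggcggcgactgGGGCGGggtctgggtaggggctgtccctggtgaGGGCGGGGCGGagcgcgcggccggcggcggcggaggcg

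These stretches held 1 GC box before Sec11c, 2 before Sec11a and 3 before Mgat4a, where the last 2 overlap. Windows of 250 bases before to 50 after the start were at hand for 34 of the 38 genes, and motifs were searched in them on both strands. A GC box was found in 23 of the 34 (67.6%), against 68.2% of the brightest 25% of measured genes and 50.2% of all measured genes with a window. The letters TATAAA were found in 0 of the 34, against 6.71% of the brightest 25% and 12.2% of all measured genes. CCAAT was found in 14 (41.2%), against 38.8% of all measured genes. The ER stress response element (CCAAT, 9 bases of any kind, then CCACG; its first letters are also a CCAAT match) was found in 0 of the 34 and in 0.113% of all measured genes. Alg2 and Sec61b are annotated head to head on chromosome 5, and their windows share 204 bases with no GC box.

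In a fit that took the 4 arrays as unpaired, no listed gene passed limma's moderated test at an adjusted p under 0.05 after Benjamini-Hochberg adjustment over 17245 genes, and neither did any other gene (smallest adjusted p = 0.229). At an unadjusted p under 0.05, 9 of the 38 had lower and 2 had higher values with the PHF6 shRNA, where the array as a whole had 10.8% of genes in either direction, 7.52% lower and 3.28% higher. Among the brightest 25% of genes 17.3% were lower at that level, and 29 of the 38 are among them. The count of 9 was 4 without control shRNA duplicate 2, 4 without PHF6 shRNA duplicate 1, 5 under cyclic loess scaling, and 13 with an offset of 16 added to the intensities. A replicate block by duplicate number, a pairing that the labels do not state, gave other counts. With it 909 genes passed, 5 of the 38 among them, and the count of 9 was 13. An exact permutation of 2 against 2 arrays has a smallest two-sided p of 0.333, so single genes were read from limma's fit across the array.

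The 38 genes were mostly slightly lower in the PHF6 shRNA arrays, with a median difference of -0.12 log2 units, against -0.08 for the brightest 25% of genes and -0.01 for all genes. Of the 38, 28 had a difference below 0 (73.7%), against 66% of the brightest 25% and 52.3% of all genes, and 25 had one after a further quantile normalization and 24 under cyclic loess scaling. The 2 groups did not overlap for 23 of the 38. Of these 18 were lower (47.4%), where 21.7% of all genes and 38.9% of the brightest 25% were lower without overlap, and 5 were higher, where 16% of all genes and 13.8% of the brightest 25% were. Cyclic loess, which evens out differences that depend on signal level, brought the median of the 38 to -0.04. The shift of the list lay near that of bright genes in general. Without overlap and by at least 0.3 log2 units, 6 were lower (Sec11c, Fut8, Sec11a, Sec63, Sec61a2 and Ssr3), where 5.43% of all genes were, and 2 were higher (Mgat4a and Dpagt1), where 2.71% of all genes were.

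**Figure D1:**
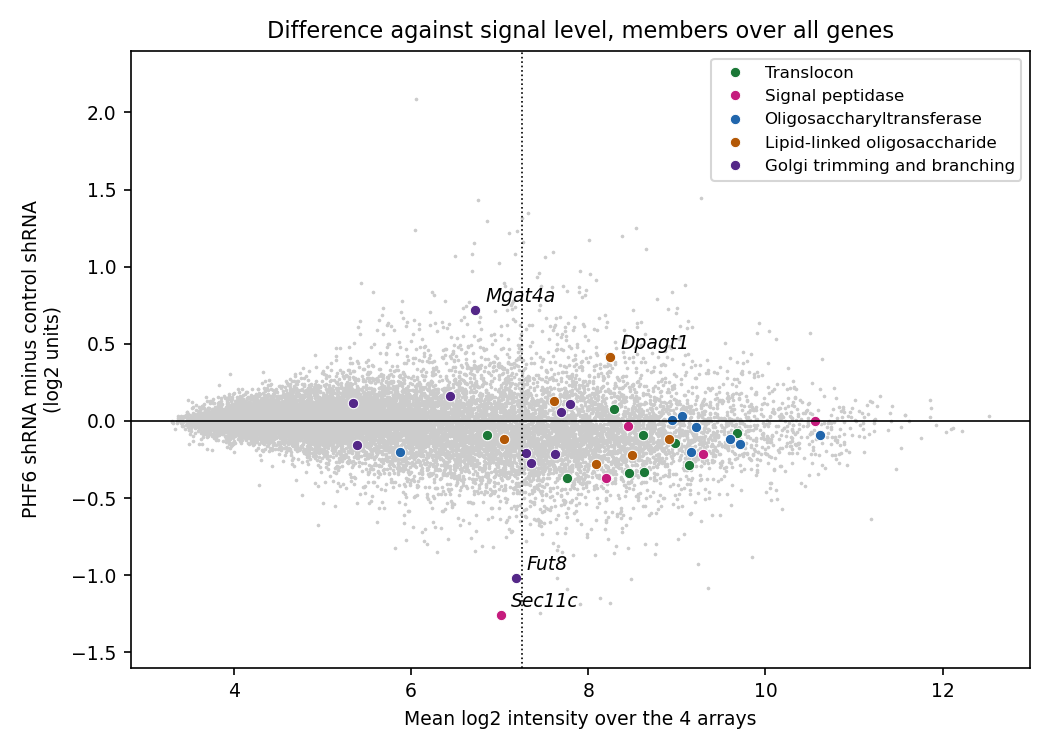
Each point is a gene, with its mean log2 intensity over the 4 arrays on the x axis and the log2 difference, PHF6 shRNA minus control shRNA, on the y axis; grey points are all 17245 genes, coloured points the 38 listed genes, and the dotted line marks the lower edge of the brightest 25%. Most coloured points lie just below 0 with the other bright genes, and Sec11c, Fut8, Mgat4a and Dpagt1 are named.

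The signal peptidase had the lowest median of the 5 steps, -0.21 log2 units, and held the gene with the lowest difference. That median was -0.13 under cyclic loess scaling. Sec11c, a catalytic subunit, read 69.5 and 100 in the PHF6 shRNA arrays, against 199 and 201 in the control shRNA arrays. Both PHF6 shRNA arrays were far below the controls, and they also differed more from each other than the controls did. The difference was -1.26 ± 0.18 log2 units (SE), or 2.39-fold, with a 95% interval from -1.71 to -0.81. It was the lowest difference of the 17245 genes and did not pass (limma adjusted p = 0.229). Sec11a, the alternative catalytic subunit, read 246 and 273 in the PHF6 shRNA arrays, against 328 and 342 in the control shRNA arrays. The groups did not overlap, and the difference of -0.37 ± 0.09 was much smaller than that of Sec11c (limma adjusted p = 0.28).

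The accessory subunits of the peptidase differed less. Spcs2, which helps to place the complex at the translocon, read 560 and 608 in the PHF6 shRNA arrays, against 679 and 675 in the control shRNA arrays, without overlap, a difference of -0.21 log2 units. Spcs3, which the catalytic subunits need for activity, read 334 and 359 in the PHF6 shRNA arrays, against 356 and 351 in the control shRNA arrays, and the groups overlapped. Spcs1 read 1413 and 1619 in the PHF6 shRNA arrays, against 1458 and 1574 in the control shRNA arrays. Its groups overlapped, and the 95% interval of its difference ran from -0.27 to 0.26 log2 units. The catalytic pair and the accessory subunits therefore had unequal values, a comparison that was not tested.

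**Figure D2:**
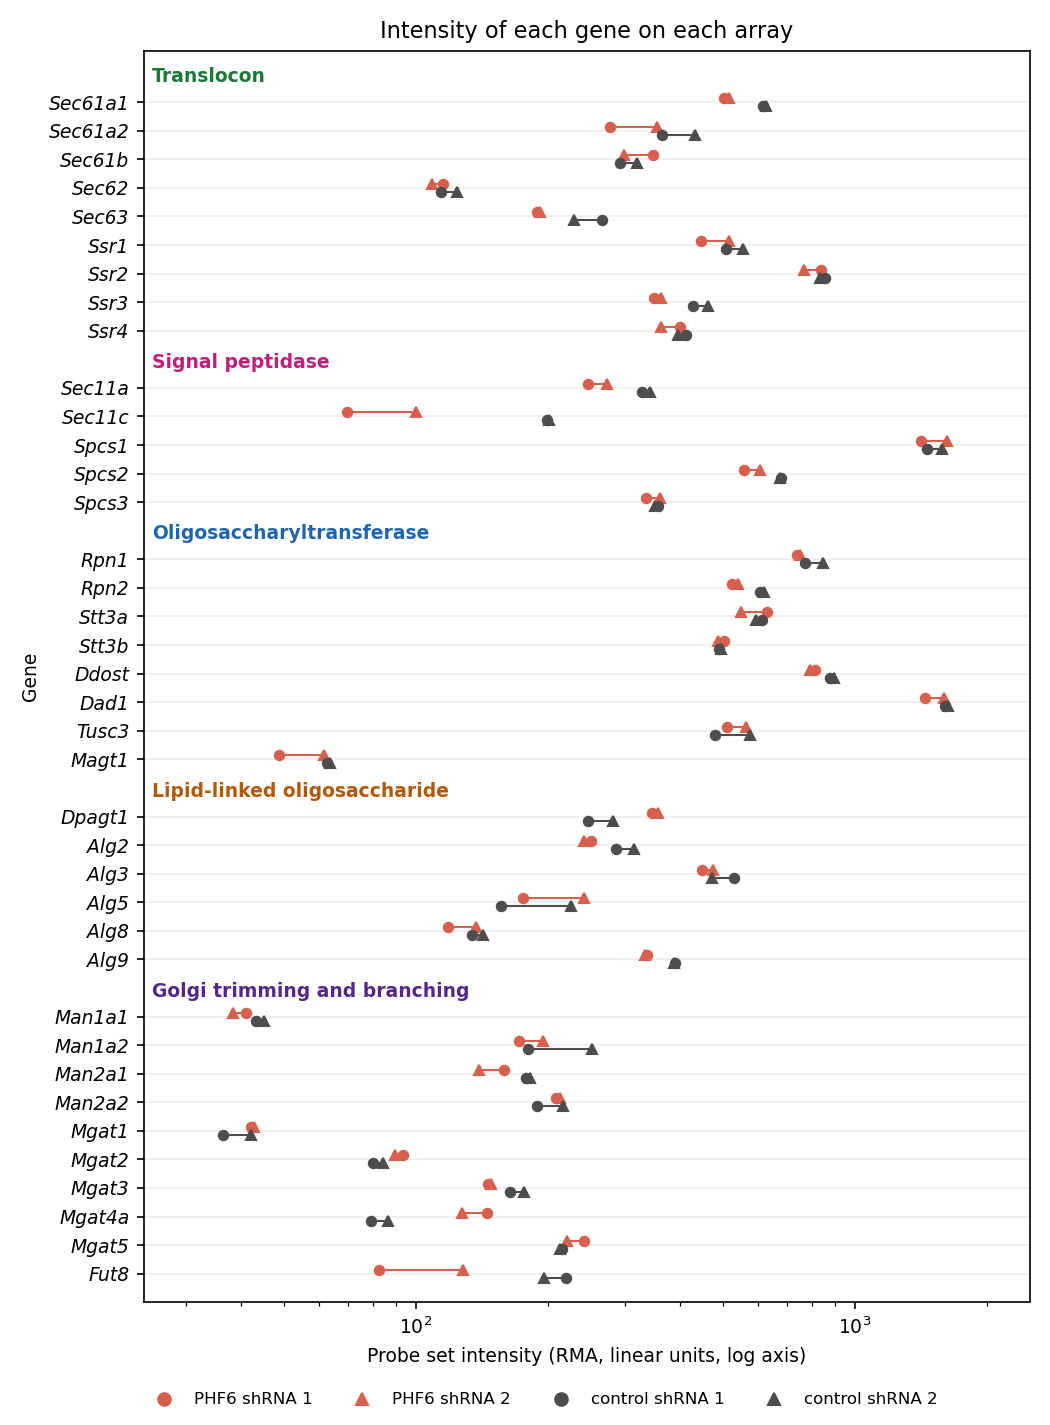
Each row is a gene, grouped by step, with the RMA intensity on a log axis; red marks are the 2 PHF6 shRNA arrays and grey marks the 2 control shRNA arrays, with circles for duplicate 1 and triangles for duplicate 2. The red marks of Sec11c (69.5 and 100) and Fut8 (82.4 and 128) lie left of their grey marks, and those of Mgat4a (145 and 127) and Dpagt1 (345 and 356) lie right of theirs.

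In the translocon, 8 of the 9 measured genes had a difference below 0, and their median was -0.14 log2 units. It was -0.25 without PHF6 shRNA duplicate 2, -0.077 after a further quantile normalization and -0.058 under cyclic loess. The groups did not overlap for 4 of the 9 genes (44.4%), all lower, near the 38.9% of the brightest 25% of genes. Sec61a1, the main pore-forming alpha subunit, read 503 and 517 in the PHF6 shRNA arrays, against 617 and 626 in the control shRNA arrays. Its duplicates were close in both groups, and the difference was -0.29 ± 0.08 (SE; limma adjusted p = 0.323). Sec61a2, the second alpha subunit, read 277 and 354 in the PHF6 shRNA arrays, against 364 and 431 in the control shRNA arrays. The groups only just failed to overlap, and the difference was -0.34 ± 0.15 (limma adjusted p = 0.532). Whether probes of such close relatives share signal was not tested. Sec61b, the beta subunit, read 346 and 298 in the PHF6 shRNA arrays, against 291 and 318 in the control shRNA arrays, and was the only measured translocon gene with a difference above 0 (0.08, with overlap).

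Sec63, a membrane-bound co-chaperone that brings the ER chaperone BiP to the channel, read 189 and 192 in the PHF6 shRNA arrays, against 265 and 229 in the control shRNA arrays. Both PHF6 shRNA arrays were lower, by -0.37 ± 0.10 log2 units (limma adjusted p = 0.317). Sec62, which works with Sec63 on small precursors, read 115 and 109 in the PHF6 shRNA arrays, against 114 and 124 in the control shRNA arrays, and the groups overlapped. The Ssr genes encode the 4 subunits of the translocon-associated protein complex, which helps certain signal sequences to open the channel. Ssr3 read 348 and 361 in the PHF6 shRNA arrays, against 428 and 463 in the control shRNA arrays, a difference of -0.33 ± 0.09 without overlap (limma adjusted p = 0.308). The other 3 subunits overlapped, with differences of -0.14 for Ssr1, -0.08 for Ssr2 and -0.09 for Ssr4.

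The oligosaccharyltransferase genes had a median difference of -0.10 log2 units, with 6 of 8 below 0, 5 lower without overlap and none past an unadjusted p of 0.05. Lower without overlap were thus 62.5% of them, against 21.7% of all genes and 38.9% of the brightest 25%. The median was -0.064 after a further quantile normalization and -0.034 under cyclic loess. The catalytic subunits showed no difference beyond their spread. Stt3a, which glycosylates proteins during translocation, read 630 and 551 in the PHF6 shRNA arrays, against 615 and 596 in the control shRNA arrays (95% interval of the difference -0.29 to 0.21; limma adjusted p = 0.983). Stt3b, which acts on sites that Stt3a misses, read 504 and 488 in the PHF6 shRNA arrays, against 491 and 494 in the control shRNA arrays (95% interval -0.19 to 0.21; limma adjusted p = 0.996). Tusc3 and Magt1 are alternative oxidoreductase subunits of the Stt3b complex. Tusc3 read 512 and 564 in the PHF6 shRNA arrays, against 479 and 576 in the control shRNA arrays, and the groups overlapped (95% interval -0.27 to 0.34). Magt1 read 48.8 and 61.7 in the PHF6 shRNA arrays, against 62.7 and 63.6 in the control shRNA arrays, without overlap but with a wide 95% interval, from -0.53 to 0.12.

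Among the shared, non-catalytic subunits, Rpn2 read 525 and 541 in the PHF6 shRNA arrays, against 609 and 619 in the control shRNA arrays. Its groups did not overlap, and the difference was -0.20 ± 0.08 log2 units (limma adjusted p = 0.463). Ddost, Rpn1 and Dad1 also did not overlap, with smaller differences of -0.15, -0.12 and -0.09.

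The genes that build the lipid-linked oligosaccharide went both ways. Dpagt1, whose enzyme makes the first, committed sugar transfer to dolichol phosphate, read 345 and 356 in the PHF6 shRNA arrays, against 246 and 281 in the control shRNA arrays. Both PHF6 shRNA arrays were higher, by 0.41 ± 0.10 log2 units, or 1.33-fold (limma adjusted p = 0.276). The mannosyltransferase genes had values on the other side. Alg2, which acts on the cytosolic face, read 251 and 241 in the PHF6 shRNA arrays, against 286 and 313 in the control shRNA arrays (difference -0.28 ± 0.09; limma adjusted p = 0.372). Alg9, which adds mannoses in the lumen, read 335 and 332 in the PHF6 shRNA arrays, against 389 and 387 in the control shRNA arrays (difference -0.22 ± 0.08; limma adjusted p = 0.422). Neither gene's groups overlapped.

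Alg3, the first lumenal mannosyltransferase, overlapped, at -0.12. Alg8, a glucosyltransferase, also overlapped, at -0.12. Alg5, which makes the dolichol-linked glucose donor, read 175 and 241 in the PHF6 shRNA arrays, against 156 and 226 in the control shRNA arrays. Its intensities followed the duplicate numbers rather than the groups. Alg2 and Sec61b, which share the stretch of sequence between their starts, differed by -0.28 and 0.08 log2 units.

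**Figure D3:**
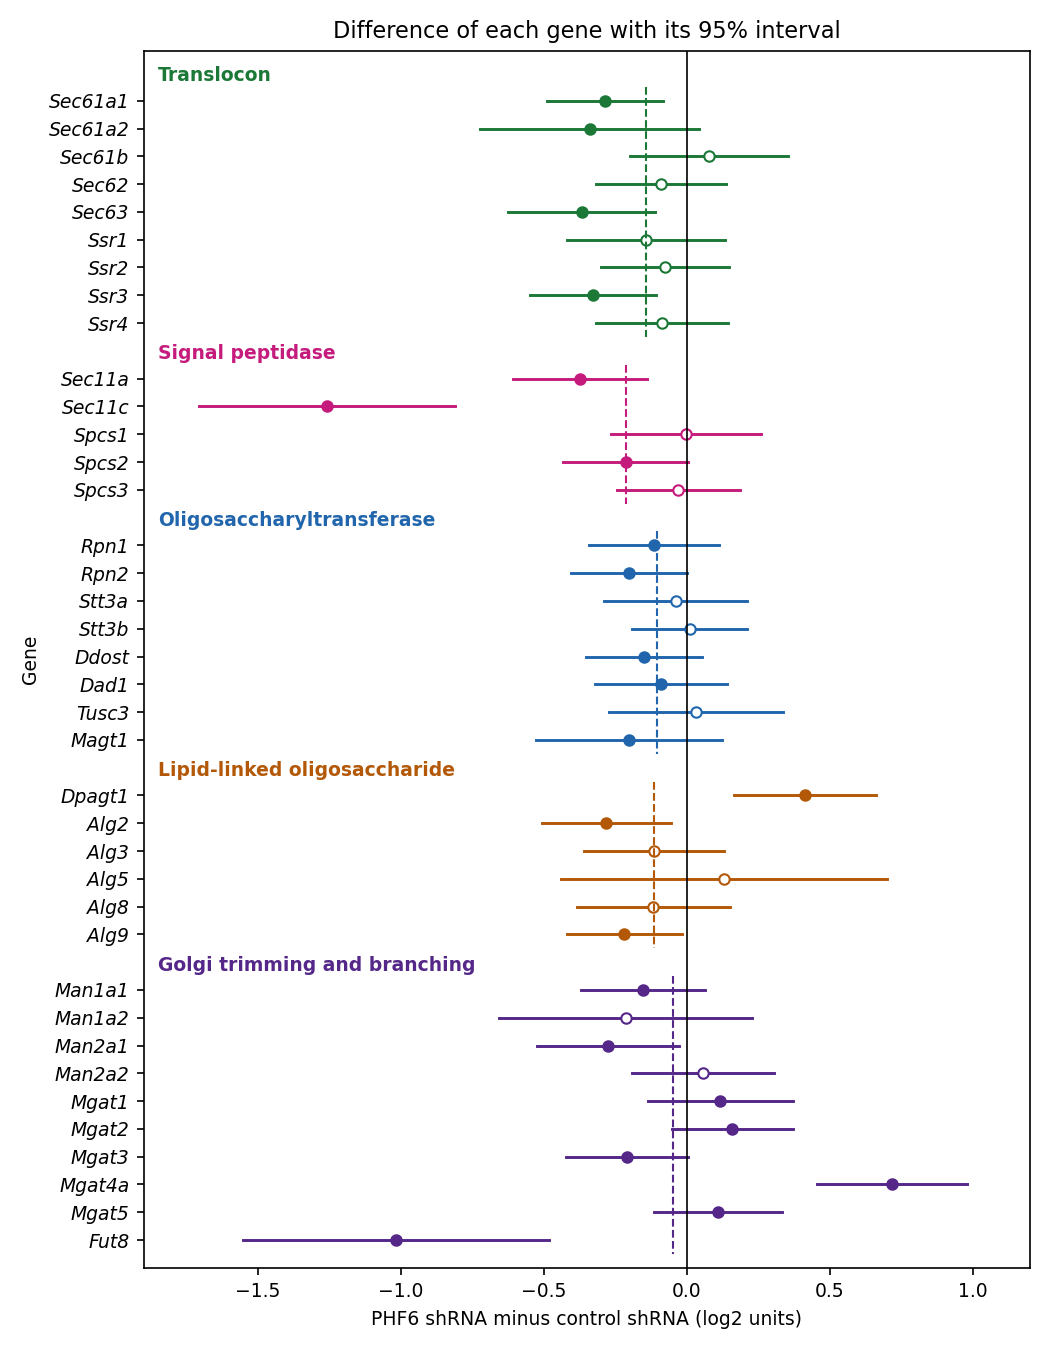
Each row is a gene, grouped by step, with the log2 difference, PHF6 shRNA minus control shRNA, as a point and limma's 95% interval as a line; filled points are genes whose groups do not overlap and dashed lines are the medians of the steps. Intervals of Sec11c (-1.71 to -0.81), Fut8 (-1.55 to -0.48), Dpagt1 (0.16 to 0.66) and Mgat4a (0.46 to 0.98) lie farthest from 0, and none of the 38 genes passed after adjustment in this unpaired fit.

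Golgi trimming and branching genes were split, with 5 of 10 above 0 and 5 below, and 4 of each side without overlap. Among all genes 21.7% were lower and 16% higher without overlap. These counts include Mgat1 and Man1a1, which were above background on 2 arrays each. Fut8, which adds the core fucose of N-glycans, read 82.4 and 128 in the PHF6 shRNA arrays, against 220 and 196 in the control shRNA arrays. Both PHF6 shRNA arrays were lower, with a wide gap between them. The difference was -1.02 ± 0.21 log2 units, or 2.02-fold (limma adjusted p = 0.245). Mgat4a, a transferase that starts an extra branch on the glycan core, read 145 and 127 in the PHF6 shRNA arrays, against 79 and 86.2 in the control shRNA arrays. Both PHF6 shRNA arrays were higher, by 0.72 ± 0.10 log2 units, or 1.65-fold (limma adjusted p = 0.229).

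The other branching transferases differed less. Mgat2 and Mgat5 were higher without overlap, by 0.16 and 0.11 log2 units. Mgat1, which starts complex N-glycans, read 42.1 and 42.7 in the PHF6 shRNA arrays, against 36.4 and 42 in the control shRNA arrays. It was above background only on the arrays numbered 2, so its difference of 0.12 is not exact. Mgat3, which adds the bisecting N-acetylglucosamine that blocks further branching, read 146 and 148 in the PHF6 shRNA arrays, against 164 and 176 in the control shRNA arrays, a difference of -0.21 ± 0.09 without overlap (limma adjusted p = 0.468). Of the 4 listed Mgat genes above background on all arrays, 3 thus had a difference above 0 and Mgat3 one below 0, and none passed the test. Mgat4b and Mgat5b, from a further Golgi list, were also above background on all arrays and differed by -0.43 and -0.37.

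The listed mannosidases come as pairs of related genes. Man1a1, an early Golgi mannosidase, read 41.1 and 38.3 in the PHF6 shRNA arrays, against 43.3 and 45 in the control shRNA arrays. It was above background only on the arrays numbered 2, so its difference of -0.15 is not exact. Man1a2, its close relative, read 172 and 195 in the PHF6 shRNA arrays, against 180 and 252 in the control shRNA arrays, and the groups overlapped (95% interval -0.66 to 0.23). Man1c1, from a further Golgi list, read 67.9 and 72.5 in the PHF6 shRNA arrays, against 59 and 49.3 in the control shRNA arrays. This relative of Man1a1 and Man1a2 was higher without overlap, by 0.38 ± 0.12 (limma adjusted p = 0.356). Man2a1, which trims after Mgat1 has acted, read 159 and 139 in the PHF6 shRNA arrays, against 178 and 182 in the control shRNA arrays, a difference of -0.28 ± 0.10 without overlap (limma adjusted p = 0.417). Man2a2 read 208 and 213 in the PHF6 shRNA arrays, against 189 and 216 in the control shRNA arrays, and the groups overlapped (95% interval -0.19 to 0.31).

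Neighbouring steps of the pathway were read from 7 further lists, with 85 of 92 genes measured. Of the 85, 20 were lower and 4 higher at an unadjusted p under 0.05, and none passed after adjustment (limma, smallest adjusted p = 0.233). At that unadjusted level 7.52% of all genes were lower and 3.28% higher, and of the brightest 25%, 17.3% and 5.43%. The median of the 85 was -0.13 log2 units, close to that of the 38 genes. Below 0 were 75.3% of the 85, against 52.3% of all genes and 66% of the brightest 25%. In the signal recognition particle and its receptor, which bring ribosomes to the membrane, 5 of 7 genes were below 0. Srp68 read 142 and 159 in the PHF6 shRNA arrays, against 210 and 210 in the control shRNA arrays (difference -0.48 ± 0.09; limma adjusted p = 0.242), and Srp54a, the subunit that binds the signal sequence, differed by -0.26.

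Other insertion factors had the lowest median of the 7 lists, -0.18, with 11 of 16 below 0 and 9 lower without overlap (56.2%, against 21.7% of all genes and 38.9% of the brightest 25%). The median was -0.10 under cyclic loess. Get1, a receptor for tail-anchored proteins, read 268 and 277 in the PHF6 shRNA arrays, against 387 and 375 in the control shRNA arrays (difference -0.48 ± 0.08; limma adjusted p = 0.233). Emc3, a core subunit of the ER membrane protein complex, read 252 and 285 in the PHF6 shRNA arrays, against 355 and 353 in the control shRNA arrays (difference -0.40 ± 0.10; limma adjusted p = 0.276). Snd1 stood on that list with -0.56, but the rat gene of that name encodes an unrelated nuclease-domain protein. Without it the median was -0.16, with 10 of 15 below 0 and 8 lower without overlap (53.3%). Snd1 is also counted among the 85 genes and among the 20 lower ones. On a separate list of 3 other oligosaccharyltransferase genes the median was -0.01. Of these, Ostc, an adaptor of the Stt3a complex, differed by -0.35 ± 0.09 (limma adjusted p = 0.28). Krtcap2 was higher without overlap, by 0.14, and Ost4 differed by -0.01.

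Other Alg and dolichol genes were below 0 in 12 of 14, with a median of -0.15, which was -0.067 under cyclic loess. Alg10, the last glucosyltransferase of the assembly, read 407 and 405 in the PHF6 shRNA arrays, against 277 and 338 in the control shRNA arrays, a difference of 0.41 ± 0.12 (limma adjusted p = 0.331). Alg14 and Srd5a3, a transferase subunit and a reductase of dolichol synthesis, differed by -0.27 and -0.24. The first and last enzymes of lipid-linked assembly, Dpagt1 and Alg10, were thus the 2 with the highest differences among the genes of that route, while most between them were below 0.

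In ER trimming and quality control, 13 of 15 genes were below 0, with a median of -0.14, which was -0.095 under cyclic loess. Mcfd2, a cargo receptor subunit, differed by -0.37 and Edem2, a mannosidase-like protein of ER-associated degradation, by -0.29. Its relative Edem1 read 232 and 200 in the PHF6 shRNA arrays, against 162 and 179 in the control shRNA arrays, a difference of 0.34 ± 0.11 (limma adjusted p = 0.39).

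In the further Golgi list 16 of 23 genes were below 0 (69.6%, against 52.3% of all genes and 66% of the brightest 25%). Mgat4b, the paralog of Mgat4a, read 164 and 149 in the PHF6 shRNA arrays, against 201 and 218 in the control shRNA arrays. Its difference of -0.43 ± 0.10 had the opposite sign to that of Mgat4a, and the contrast between the paralogs was not tested (limma adjusted p = 0.257). St6gal1, a sialyltransferase, differed by -0.36 and Mgat5b, a brain-enriched relative of Mgat5, by -0.37. At an unadjusted p under 0.05 (limma), 5 of the 23 were lower and 2 higher, where 7.52% and 3.28% of all genes were. The 2 higher were Man1c1 at 0.38 and St8sia3 at 0.22, both without overlap. Of the 23, 4 were above background on no array. Among genes for the supply of fucose and hexosamine, 5 of 7 were below 0, and Gmds, the first enzyme of GDP-fucose synthesis from mannose, differed by -0.27.

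**Figure D4:**
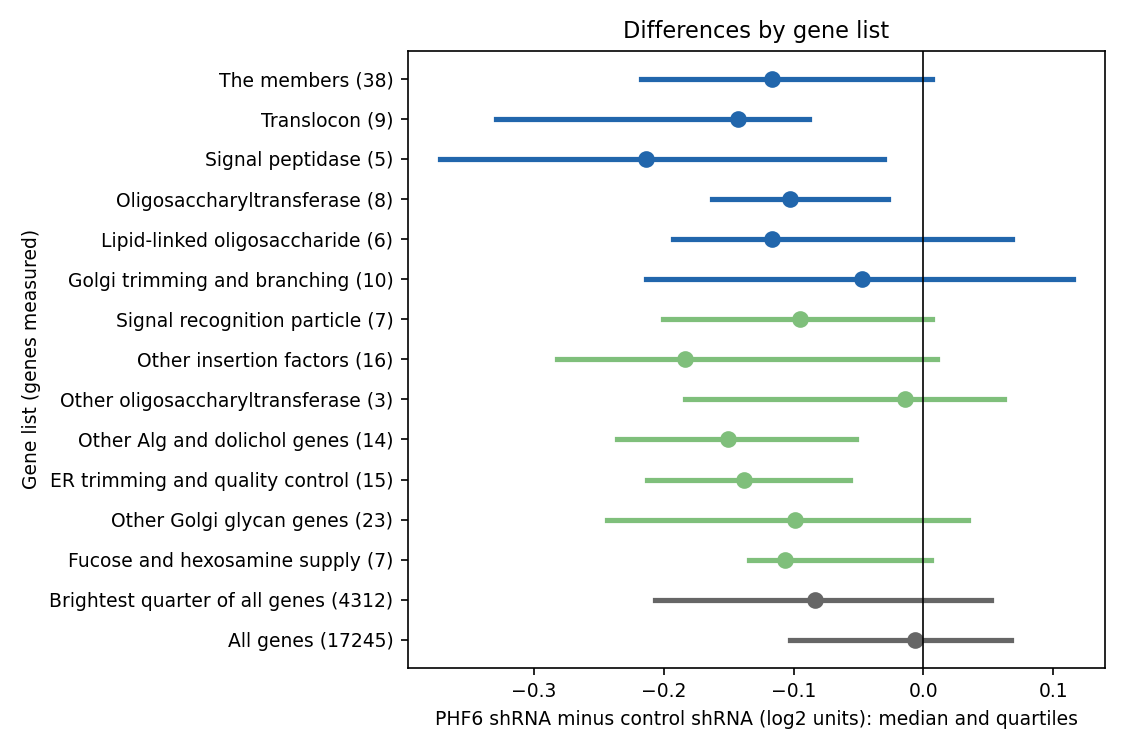
Each row is a gene list with the number of genes measured; points are medians of the log2 difference, PHF6 shRNA minus control shRNA, and lines run between the quartiles, with the 38 genes and their 5 steps in blue, the 7 neighbouring lists in green and the array as a whole in grey. The signal peptidase has the lowest median (-0.21), and the brightest 25% of all genes has a median of -0.08.

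The 8 genes named for size kept their sign under each of 15 alternative settings. Sec11c ran from -1.52 to -0.996 log2 units and Fut8 from -1.33 to -0.70, with both ends of each range reached by leaving out a PHF6 shRNA array. Mgat4a ran from 0.62 to 0.81, and Dpagt1 from 0.32 to 0.51. Sec11a ran from -0.45 to -0.28, Sec63 from -0.47 to -0.26 and Ssr3 from -0.39 to -0.24. Sec61a2 moved most relative to its size, from -0.52 to -0.16.

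**Figure D5:**
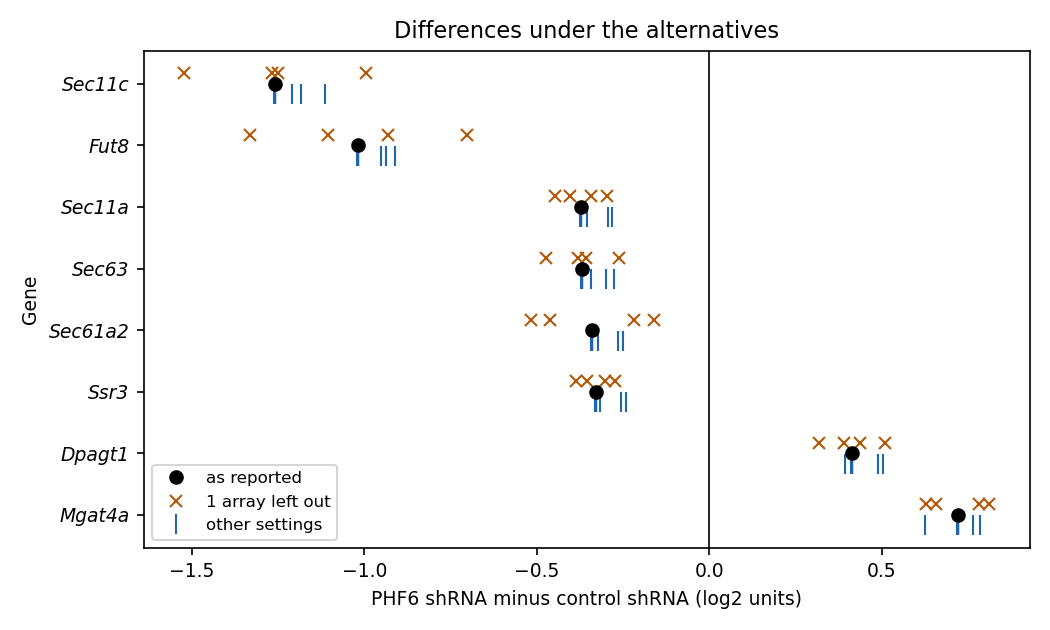
Log2 differences, PHF6 shRNA minus control shRNA, of the 8 genes under the reported fit (black points), with 1 array left out (orange crosses) and under the other settings (blue ticks). Every mark of the 6 lower genes lies below 0 and every mark of Dpagt1 and Mgat4a above it.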

How the data were processed

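Total RNA was extracted with Trizol, converted to biotin-labelled sense target by a whole-transcript protocol and hybridised to Affymetrix arrays, per the labels' protocols. The deposited values are probe set intensities that the authors made with RMA (background correction, normalization between arrays, summary per probe set), per the submitters' processing notes; its version is not given in the sources used here. Since they are linear (lowest 8.57, highest 6121), they were log2-transformed. RMA compresses differences of dim probe sets.

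Of 29214 rows, 18644 carry 1 gene symbol, 962 several and 9608 none in the platform annotation; symbols were updated by gene identifier to RefSeq (GRCr8) for 18460 rows. The brightest probe set stood for a gene, which gave 17245 genes. The number of arrays, 2 a group, limits the precision. Groups, taken from the titles, entered a linear model in limma 3.58.1 under R 4.3.3 (moderated test by eBayes, 2-sided, no filter, no block, prior of 3.46 degrees of freedom). The p-values were adjusted by Benjamini-Hochberg over the 17245 genes. A limma fit of the same form was also run on simulated arrays that varied independently of each other. That run cannot speak to the shared deviations of same-numbered arrays in these data. Genes and lists were chosen with earlier results of these data known. Full values are given for listed genes without overlap that differ by at least 0.3 log2 units and for both genes of 6 paralog pairs. Other listed genes were added after their values were seen. Up to 3 genes a neighbouring list are named by smallest p. Further genes of those lists, such as Man1c1 and St8sia3, were also added after their values were seen. Alternatives were a replicate block, leaving out each array, 3 scalings, 2 filters on dim genes, the mean of probe sets, 2 other priors, array weights and an offset of 16. Protein sequences of the paralogs were not compared here.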

Additional observations from a re-analysis of the deposited data

How the results depend on the processing

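The sample descriptions end in exp-1 and exp-2 in both groups, which may point to shared experiments, but the labels do not state that these numbers pair the arrays. Deviations from the group means of same-numbered arrays correlated at 0.57 over all genes and at 0.18 over the 38 genes. With a replicate block 909 genes passed, 3409 reached an unadjusted p under 0.05, and 5 of the 38 passed: Sec11c (limma adjusted p = 0.00569), Mgat4a (0.00892), Fut8 (0.0168), Dpagt1 (0.0308) and Sec11a (0.0392). Under that block Alg5 differed by number, 0.50 log2 units higher on the arrays numbered 2 (limma adjusted p = 0.0176). Leaving out 1 array gave from 0 to 90 genes past the threshold, and from 0 to 2 of the 38. The 2 were Sec11c and Fut8 without PHF6 shRNA duplicate 2 (limma adjusted p = 0.00423 and 0.0082), a fit with 1 PHF6 shRNA array that is assumed to vary like the controls. The other 10 alternatives with 4 arrays and no block gave 0 genes. The count of 9 lower at an unadjusted p under 0.05 ran from 4 to 7 with 1 array left out and was 5 under cyclic loess, and was 13 both with the replicate block and with the offset of 16. The share lower among all genes at that level was 69.7%, but 48.2% under cyclic loess, and from 51.5% to 79% with 1 array left out. The median of the 38 was -0.039 under cyclic loess.

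Of 570 values of single genes under the alternatives, 19 changed sign, in 10 genes that all overlapped between groups. Under cyclic loess Ssr2 was at 1.2e-05, Spcs1 at 0.059, Spcs3 at 0.059 and Stt3a at 0.042, the median of the 3 other oligosaccharyltransferase genes at 0.034 and that of all genes at 0.0034. After a further quantile normalization Spcs1 was at 0.040, Spcs3 at 0.053 and Stt3a at 0.031. With 1 array left out, ranges that spanned 0 were -0.14 to 0.40 (Alg5), -0.46 to 0.029 (Man1a2), -0.037 to 0.15 (Man2a2), -0.030 to 0.19 (Sec61b), -0.10 to 0.095 (Spcs1), -0.082 to 0.022 (Spcs3), -0.14 to 0.057 (Stt3a), -0.013 to 0.032 (Stt3b) and -0.10 to 0.16 (Tusc3). The same held for the medians of Golgi trimming and branching (-0.11 to 0.067), of fucose and hexosamine supply (-0.090 to 0.028), of the 3 other oligosaccharyltransferase genes (-0.052 to 0.023) and of all genes (-0.017 to 0.00096). The cause was not tested.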

Other observations

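The probe set annotated to both Sec61g and the pseudogene Sec61g-ps8 read 514 and 687 in the PHF6 shRNA arrays, against 720 and 728 in the control shRNA arrays, a difference of -0.28 log2 units with no test. Both PHF6 shRNA arrays were lower, but signal from the gene and from the pseudogene cannot be told apart in it.

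Stt3b has a second, dimmer probe set, which read 82.2 and 78.4 in the PHF6 shRNA arrays, against 82.1 and 70.4 in the control shRNA arrays, a difference of 0.08 log2 units, where the brighter one differed by 0.01.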
